A study of Mus musculus with 3 samples.

Results

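Copper handling in mouse melanocytes was described here through 10 genes, the copper transporters *Slc31a1*, *Slc31a2*, *Atp7a* and *Atp7b*, the copper chaperones *Atox1*, *Ccs* and *Cox17*, and the metallothioneins *Mt1*, *Mt2* and *Mt3*. They were taken by symbol from a list set by role, and all 10 were found among the 22698 genes measured. RNA-seq was performed on 3 replicates of untreated melan-a cells, labelled 1, 3 and 4. Melan-a is an immortalized mouse melanocyte line of C57BL/6J background, and the labels give its origin as Ink4a-ARF-/- mice. The medium was RPMI 1640 with 10% fetal bovine serum, 200 nM of the phorbol ester TPA and 200 pM cholera toxin. All replicates therefore shared the line, its labelled origin and both agents, and there was 1 condition, so no treated or mutant samples were compared. The labels call the replicates biological but do not say how they were separated, so the spread between them may in part be technical.

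Copper enters cells as Cu(I) through the membrane channel CTR1, which *Slc31a1* encodes, and is handed on by small chaperones to the enzymes that need it. The P-type ATPases ATP7A and ATP7B pump it into the secretory pathway or out of the cell. In melanocytes ATP7A loads copper into tyrosinase, the rate-limiting enzyme of melanin synthesis, and loss of ATP7A in Menkes disease goes with pale hair. Metallothioneins are small cysteine-rich proteins that bind zinc and copper, and their genes are induced by metals through the transcription factor MTF1, which binds metal response elements in their promoters.

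*Mt1*, *Mt2* and *Mt3* lie side by side on the plus strand of chromosome 8, with *Mt4* beyond *Mt3*, and their promoter windows are shown here. Each line runs 5′ to 3′ from 250 bases before to 50 bases after the RefSeq start in GRCm38.p6, at chr8:94178839-94179138 for *Mt1*, chr8:94172368-94172667 for *Mt2* and chr8:94152357-94152656 for *Mt3*. Capitals mark matches on either strand to TGCACNC or TGCGCNC, the core of the metal response element.
Mt1: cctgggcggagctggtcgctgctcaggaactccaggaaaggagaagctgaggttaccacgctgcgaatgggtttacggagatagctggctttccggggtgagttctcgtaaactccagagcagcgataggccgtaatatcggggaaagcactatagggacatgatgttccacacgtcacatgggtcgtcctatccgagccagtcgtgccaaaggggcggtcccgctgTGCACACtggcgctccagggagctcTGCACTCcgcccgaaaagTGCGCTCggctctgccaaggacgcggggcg
Mt2: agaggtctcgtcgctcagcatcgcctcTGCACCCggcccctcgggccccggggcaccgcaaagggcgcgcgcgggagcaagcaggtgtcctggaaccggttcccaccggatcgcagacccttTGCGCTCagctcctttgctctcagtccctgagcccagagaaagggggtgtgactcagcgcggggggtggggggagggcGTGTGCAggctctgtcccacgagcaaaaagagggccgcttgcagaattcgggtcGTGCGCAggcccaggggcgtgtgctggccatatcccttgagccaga
Mt3: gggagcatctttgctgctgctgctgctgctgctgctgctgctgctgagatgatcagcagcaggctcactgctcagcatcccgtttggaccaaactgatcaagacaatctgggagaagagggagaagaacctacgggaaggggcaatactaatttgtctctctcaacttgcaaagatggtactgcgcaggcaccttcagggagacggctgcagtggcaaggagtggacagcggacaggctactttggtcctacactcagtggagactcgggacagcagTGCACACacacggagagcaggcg

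The *Mt1* window held 3 matches, the first bases of which lay at -23, 2 and 20 relative to the RefSeq start used. *Mt1* has 2 annotated transcripts, whose joined exons (753 bases) exceed the longest transcript (631 bases). The window was set on 1 start, so matches near any other start were not counted. In the *Mt2* window there were 4 matches, at -223, -128, -50 and 4, the last pair on the minus strand. The *Mt3* window held 1, at 27. Of 32851 RefSeq promoter windows of this length, 25.7% held at least 1 match, 1.97% at least 3 and 0.517% at least 4. The promoter table held 8 of the 10 genes, without *Ccs* and *Cox17*, and 6 of these 8 windows held a match. *Atp7a* had 2 matches, *Atp7b* and *Slc31a2* 1 each, and *Slc31a1* and *Atox1* had none. A match is a run of letters in this window and was not tested as a binding site.

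Values were FPKM, reads relative to the length of the gene and the size of the library. Levels of different genes can be set side by side only as far as the gene length used fits the transcripts present, which matters most for *Cox17* and *Slc31a2*. *Mt1* was the highest of the 10 genes, and *Mt3* and *Atp7b* were the lowest, without a clear order between them. In order of mean deposited level came *Mt1*, *Atox1*, *Mt2*, *Ccs*, *Slc31a1*, *Atp7a*, *Slc31a2*, *Cox17*, *Mt3* and *Atp7b*. On the deposited values, the ranges over replicates of neighbours in this order overlapped only for *Atp7a* with *Slc31a2* and for *Mt3* with *Atp7b*. At least 1 FPKM in every replicate was reached by 8 of the 10 genes, against 44.1% of all genes. At least 10 FPKM in every replicate was reached by 5 of them, against 21.7% of all genes, and at least 100 FPKM by 3, against 2.17%. The median of the 10 means was 12.4 FPKM, and that of all genes 0.277 FPKM. In a bulk sample, fewer cells with a transcript and less of it per cell cannot be told apart.

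**Figure D1:**
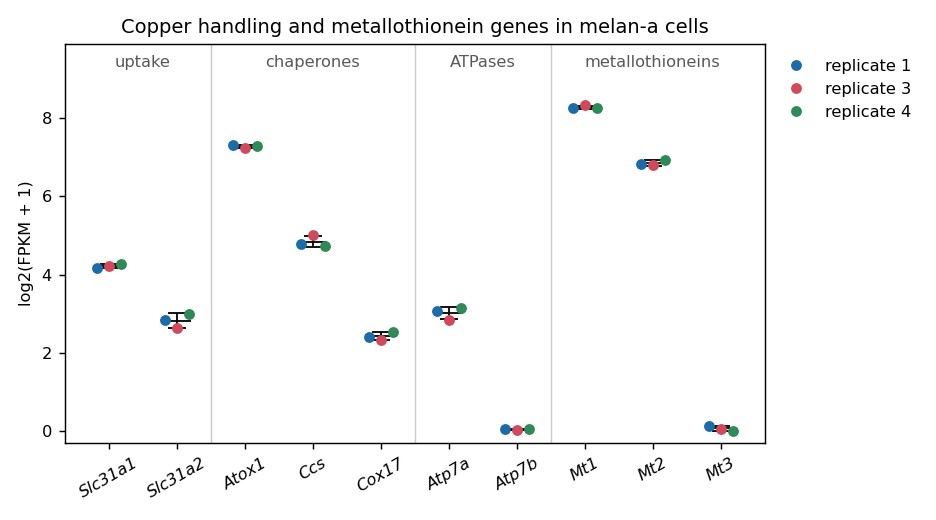
Level of each of the 10 genes in the 3 melan-a replicates, as log2(FPKM + 1), grouped by role, where points are replicates and the bars give the mean and SD of the log2 values. *Mt1*, *Atox1* and *Mt2* stand highest, and *Atp7b* and *Mt3* lie next to 0 in all 3 replicates. The group marked uptake also holds *Slc31a2*, whose product is a protein of endosomes and lysosomes.

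**Figure D2:**
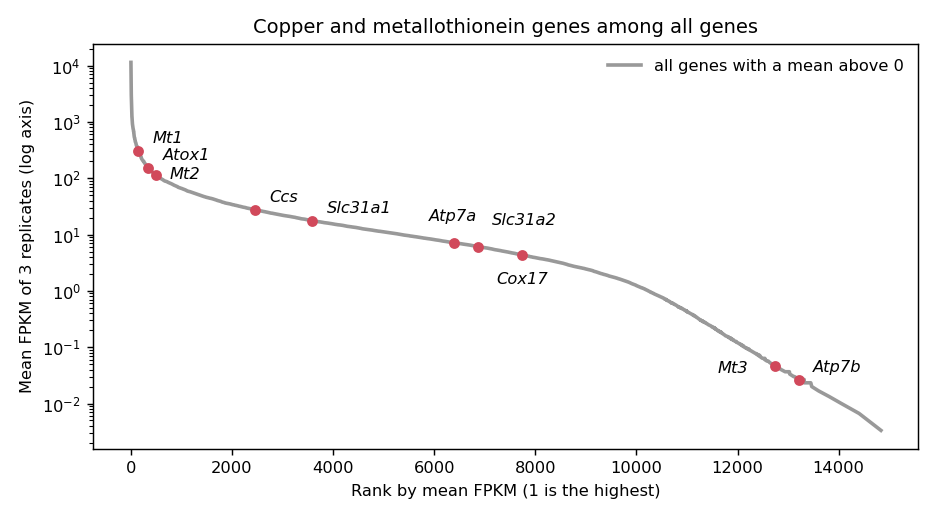
Mean FPKM of every gene with a mean above 0 (log axis) against its rank, 1 being the highest, with the 10 genes in red. *Mt1* lies at rank 147, and *Mt3* and *Atp7b* lie at ranks 12743 and 13209.

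*Slc31a1* and *Slc31a2* were both expressed, and on the deposited values *Slc31a1* was the higher of the pair. *Slc31a1* (ENSMUSG00000066150) lies at 62021761 to 62052803 on the plus strand of chromosome 4 in mm9, 62.3 kb beyond its neighbour *Slc31a2*. Its level in replicates 1, 3 and 4 was 17.12, 17.55 and 18.21 FPKM, a mean of 17.6 ± 0.55 FPKM (SD, n = 3) at rank 3583. The coefficient of variation was 3.1%, and 90.9% of the 3793 genes within a factor of 2 of its level varied more. *Slc31a2* (ENSMUSG00000066152, chromosome 4, 61923596 to 61959445, plus strand) encodes CTR2, a related protein of endosomes and lysosomes. Its values of 6.15, 5.17 and 7.01 FPKM in replicates 1, 3 and 4 gave a mean of 6.11 ± 0.92 FPKM (SD, n = 3) at rank 6862, with replicate 3 the lowest. In every replicate *Slc31a1* was above *Slc31a2*, by 2.93 ± 0.42-fold (SD, n = 3), or 1.40 ± 0.17 on the log2(FPKM + 1) scale.

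That ratio rests on the length used for *Slc31a2*. The deposited values came closest to whole reads with the joined exons of all protein-coding transcripts as the gene length. That choice rests on 18 to 20 short genes with several transcripts in each replicate. In replicate 4 the mean distance from whole reads was 0.123, against 0.133 with the exons of all transcripts joined. The joined protein-coding length is 2033 bases for *Slc31a2*, while its shortest protein-coding transcript has 743. Divided by the shortest instead, the same reads gave 16.7 FPKM, or rank 3755 with all other genes left at their deposited levels. With both genes on their shortest protein-coding transcript, the log2 ratio of *Slc31a1* to *Slc31a2* fell to 0.27. Gene values do not show which transcript the reads came from.

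The cytosolic chaperones were expressed at very unequal levels. *Atox1* (ENSMUSG00000018585, chromosome 11, 55260143 to 55274741, minus strand) hands copper to the ATPases, and had 157.05, 148.99 and 156.5 FPKM in replicates 1, 3 and 4. Its mean of 154 ± 4.5 FPKM (SD, n = 3) placed it at rank 340 of all genes. *Ccs* (ENSMUSG00000034108, chromosome 19, 4825366 to 4839322, minus strand) is the copper chaperone of superoxide dismutase SOD1. Its values were 26.44, 31.03 and 25.8 FPKM, with replicate 3 the highest and a mean of 27.8 ± 2.9 FPKM (SD, n = 3) at rank 2456. *Atox1* exceeded *Ccs* by 5.60 ± 0.70-fold (SD, n = 3), in 3 of 3 replicates.

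*Cox17* (ENSMUSG00000046516, chromosome 16, 38347077 to 38362383, plus strand) delivers copper to the assembly of cytochrome c oxidase in mitochondria. It had 4.29, 4.03 and 4.82 FPKM in replicates 1, 3 and 4, a mean of 4.38 ± 0.40 FPKM (SD, n = 3) at rank 7738. On these values *Atox1* was 35.3 ± 2.5-fold and *Ccs* 6.41 ± 1.2-fold above it (SD, n = 3), each in 3 of 3 replicates. *Cox17* has 7 annotated transcripts, and their protein-coding exons join to 3939 bases, against 444 in the shortest one. Per length of the shortest, the level of *Cox17* was 38.9 FPKM, 8.87 times the deposited value. It would rank 1774 with all other genes left at their deposited levels. The ratio of *Ccs* to *Cox17* was then reversed, from 2.42 ± 0.24 (SD, n = 3) to -0.47 on the log2(FPKM + 1) scale, and that of *Atox1* to *Cox17* fell from 4.85 ± 0.08 (SD, n = 3) to 1.96. The place of *Cox17* below *Ccs* therefore depends on the gene length. Of the 50-base windows on its exons, 1.32% occur elsewhere in the genome, and 1.49% of its exons overlap another gene on the same strand.

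**Figure D3:**
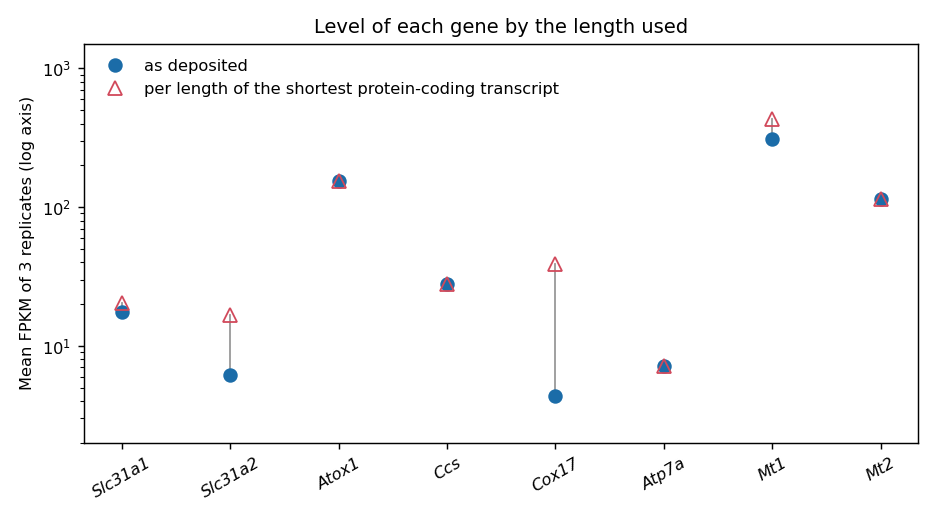
Mean FPKM of the 8 genes above 1 FPKM (log axis) as deposited (circles) and divided by the length of the shortest protein-coding transcript (triangles). *Cox17* moves from 4.38 to 38.9 FPKM and *Slc31a2* from 6.11 to 16.7, while *Atox1*, *Ccs* and *Mt2* keep their values.

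Of the copper ATPases, *Atp7a* carried nearly all the reads. *Atp7a* (ENSMUSG00000033792) spans 103222615 to 103320265 on the plus strand of chromosome X. It had 7.36, 6.22 and 7.85 FPKM in replicates 1, 3 and 4, a mean of 7.14 ± 0.84 FPKM (SD, n = 3) at rank 6385, from an estimated 1433 to 2560 reads. Replicate 3 was again the lowest, with a log2 ratio to replicate 4 of -0.29, and the median of genes of like GC content was -0.31. *Atp7b* (ENSMUSG00000006567, chromosome 8, 23103257 to 23170777, minus strand), the gene of Wilson disease, had 0.03, 0.02 and 0.03 FPKM. These values came from about 10.5, 6.1 and 13.0 reads, above the 3 reads taken as the smallest measurable level (0.0086, 0.0098 and 0.0069 FPKM). The ratio of *Atp7a* to *Atp7b* was 245, 311 and 262 in replicates 1, 3 and 4, a mean of 273 ± 34-fold (SD, n = 3). Per length of the shortest protein-coding transcript, which is 4044 bases for *Atp7b* against 6505 for the joined exons, it was 171 ± 21-fold (SD, n = 3). On the log2(FPKM + 1) scale it was only 2.98 ± 0.14 (SD, n = 3), because the added 1 FPKM is far above the level of *Atp7b*. The deposited values are rounded to 0.01 FPKM, which is a large part of 0.02 or 0.03.

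Among the metallothioneins, *Mt1* and *Mt2* were abundant and *Mt3* was at the limit of detection. *Mt1* (ENSMUSG00000031765, chromosome 8 of mm9, 96702989 to 96704225) had 304.21, 321.04 and 305.33 FPKM in replicates 1, 3 and 4, a mean of 310 ± 9.4 FPKM (SD, n = 3) at rank 147. *Mt2* (ENSMUSG00000031762, 96696518 to 96697467) had 112.05, 110.12 and 121.46 FPKM, a mean of 115 ± 6.1 FPKM (SD, n = 3) at rank 487. Both are the widely expressed metallothioneins, and the order of the pair was the same in 3 of 3 replicates, with *Mt1* above *Mt2* by 2.71 ± 0.20-fold (SD, n = 3). The size of that ratio depends on the length used for *Mt1*. Per length of its shortest protein-coding transcript, 540 bases, *Mt1* was at 433 FPKM, or rank 94 with all other genes left at their deposited levels. Its log2(FPKM + 1) ratio to *Mt2* then rose from 1.43 to 1.91. *Mt3* (ENSMUSG00000031760, 96676507 to 96678048), known mainly from the brain, had 0.1, 0.04 and 0 FPKM, or about 2.9, 1.0 and 0 reads. It thus stayed at or under 3 reads in all 3 replicates. On the log2(FPKM + 1) scale *Mt1* was 8.22 ± 0.09 and *Mt2* 6.79 ± 0.13 above it (SD, n = 3), values that the added 1 FPKM sets and that are no bound. *Mt4*, the metallothionein of stratified epithelia, was at 0 in all 3.

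Within the cluster, which spans 43.1 kb from *Mt4* to *Mt1*, the 2 expressed genes are the closest neighbours, 5.52 kb apart. *Mt2* and *Mt3* are 18.5 kb apart and *Mt3* and *Mt4* 13.6 kb. The 3 metallothioneins summed to 416, 431 and 427 FPKM in replicates 1, 3 and 4, a mean of 425 ± 7.6 FPKM (SD, n = 3). On the deposited values *Mt1* made up 73.1%, 74.5% and 71.5% of that sum, and *Mt2* nearly all of the rest. Together they held 0.113 ± 0.0054% of all FPKM (SD, n = 3). Of the 50-base windows on *Mt2*, 0.592% (3 windows) occur elsewhere in the genome, and none of those on *Mt1* or *Mt3* do. The promoter windows of *Mt2* and *Mt1*, each at 1 RefSeq start, held 4 and 3 matches to the core of the metal response element, and that of *Mt3* held 1. A link between matches and levels was not tested.

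The 8 ratios between genes were each tested over the 3 replicates with an exact two-sided sign-flip permutation test. With 3 replicates it cannot give less than p = 0.25, and all 8 pairs reached that value, with the first gene higher in 3 of 3 replicates (exact permutation p = 0.25, Benjamini-Hochberg adjusted p = 0.25). The pairs were *Atp7a* with *Atp7b*, *Slc31a1* with *Slc31a2*, and the pairs within the chaperones and within the metallothioneins.

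The other genes of copper and zinc handling were read from lists. Of all genes, 44.1% reached 1 FPKM in every replicate. All 9 genes of mitochondrial copper delivery reached 1 FPKM in every replicate, with a median of 9.15 FPKM. The highest were *Slc25a3*, the mitochondrial phosphate and copper carrier, at 145 ± 8.9 FPKM, *Coa5* at 26.8 ± 1.9 FPKM and *Sco2*, a copper metallochaperone of cytochrome c oxidase, at 12.6 ± 1.9 FPKM (SD, n = 3). Of 12 reductases, metal sensors and copper regulators, 9 reached 1 FPKM, with a median of 6.37 FPKM. The amyloid precursor *App*, whose product binds copper, was the highest at 747 ± 46.6 FPKM, followed by the transcription factor *Sp1* at 13.2 ± 0.89 and the glutaredoxin *Glrx* at 12.95 ± 0.45 FPKM (SD, n = 3). *Mtf1*, the metal sensor that drives metallothionein genes, had 4.15, 4.07 and 4.32 FPKM in replicates 1, 3 and 4.

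The copper-dependent enzymes were uneven, with a median of 1.34 FPKM. At 1 FPKM or more in every replicate were 11 of 19, against 44.1% of all genes. The mitochondrial cytochrome c oxidase subunit *mt-Co1* had the highest level of all genes, at 11403 ± 167 FPKM (SD, n = 3). *Loxl3*, a lysyl oxidase, followed at 227 ± 32.9 FPKM and *Sod1*, the client of *Ccs*, at 164 ± 12.0 FPKM (SD, n = 3). *mt-Co2*, another mitochondrially encoded subunit of cytochrome c oxidase, had only 97.5 ± 7.1 FPKM (SD, n = 3) at rank 600. The cause of the gap between *mt-Co1* and *mt-Co2* was not tested. *Tyr*, the tyrosinase that ATP7A supplies, had 72.53, 59.2 and 74.43 FPKM at rank 943. Of 24 zinc transporters, 15 reached 1 FPKM, against the same 44.1% of all genes, with a median of 6.55 FPKM. *Slc39a1* led with 108 ± 19.1 FPKM, then *Slc39a7* with 66.6 ± 10.5 and *Slc39a13* with 45.7 ± 7.1 FPKM (SD, n = 3). *Slc30a1*, the zinc exporter that MTF1 also induces, was at 2.39, 2.39 and 2.02 FPKM.

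**Figure D4:**
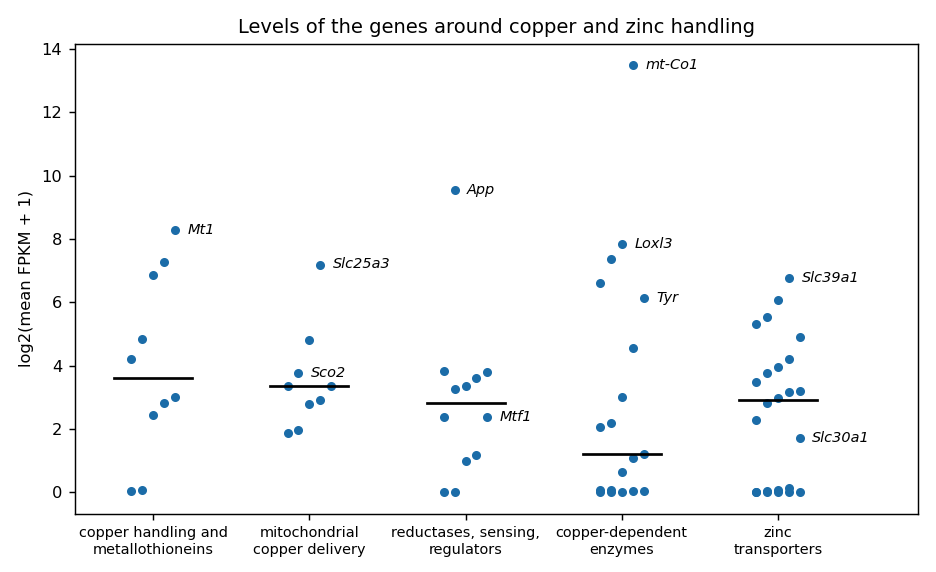
Level of every gene of 5 lists as log2 of its mean FPKM plus 1, where points are genes and lines are the median of the points. The 9 genes of mitochondrial copper delivery all lie above 0, while the copper-dependent enzymes range from *mt-Co1* at 11403 FPKM to genes at or near 0.

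The labelled cell type was checked against markers. All 7 melanocyte markers exceeded 10 FPKM in every replicate and summed to between 5711 and 6557 FPKM. The 5 keratinocyte markers summed to 0.36 to 0.7 FPKM, with *Krt1* and *Trp63* at 0. The 5 fibroblast markers summed to 1.52 to 1.85 FPKM, mostly from *Col1a1* at 1.51, 1.77 and 1.33 FPKM in replicates 1, 3 and 4. The 5 immune markers summed to 12.6 to 13.6 FPKM, nearly all from *Lyz2*, with *Ptprc*, *Itgam* and *Cd3e* at 0. *Cdkn2a*, the Ink4a-ARF locus, had 19.24, 16.49 and 24.32 FPKM although the labels give the cells a null origin, and gene values do not tell which exons the reads came from. The library size behind the FPKM was recovered from genes whose FPKM must give whole reads. It came to 46900000 to 66400000 reads per library. It may include the scaling between libraries, so it need not be the number of reads sequenced. Counting error on this size was 0.88% to 3.8% of the level for the 8 genes above 1 FPKM. None of the 8 had a coefficient of variation between replicates above 15.1%, the value of *Slc31a2*.

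Replicates 3 and 4 were the least alike, and genes differed between them along their GC content. Over genes of at least 1 FPKM, the median log2 ratio of replicate 3 to 4 rose from -0.40 at 40 to 45% GC to 0.53 at 60 to 65% GC. Across the 8 copper and metallothionein genes above 1 FPKM the ratio lay between -0.38 for *Slc31a2* and 0.26 for *Ccs*, and its median size was 0.175, against 0.270 over 10011 genes. *Atp7b* and *Mt3* are left out here, because the added 1 FPKM holds their ratios near 0. All 8 lay inside the central 90% of genes of like level (those within a factor of 2). Beside genes of like GC content, 6 of 8 lay inside. The exceptions were *Atox1* (-0.07, median of like genes 0.41) and *Mt2* (-0.14, median 0.32), which have 59.3% and 56.8% GC. When genes were matched for length as well, *Atox1* (110 genes, median 0.34) was outside the central 90% and *Mt2* was inside. In the other pairs of replicates, all 8 lay inside genes of like level, and *Atox1* lay outside genes of like GC content for replicates 1 and 3. The part of GC content in the levels of single genes was not tested.

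**Figure D5:**
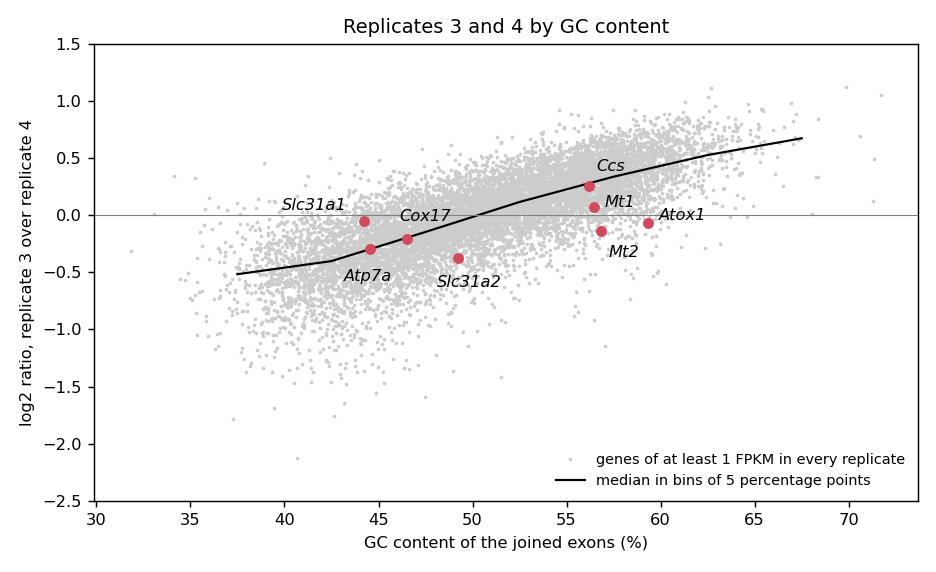
Log2 ratio of replicate 3 to replicate 4, on FPKM + 1, against the GC content of a gene's exons, for genes of at least 1 FPKM in every replicate (grey) and the 8 copper and metallothionein genes among them (red). The line of medians climbs with GC content, and of the 8 genes *Atox1* at -0.07 and *Mt2* at -0.14 lie furthest under it.

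For each of the 8 genes above 1 FPKM, the gene most like it over the 3 replicates was found by Euclidean distance of log2(FPKM + 1). These were *Ccrn4l* for *Atp7a* (distance 0.023), *Sun1* for *Slc31a1* (0.025), *Slc35a1* for *Slc31a2* (0.045) and *Nono* for *Atox1* (0.058). The others were *Zfpl1* for *Ccs* (0.031), *Mycbp* for *Cox17* (0.024), *Mdh2* for *Mt1* (0.073) and *Cdh2* for *Mt2* (0.074). With 3 replicates of 1 condition this measure is mostly a likeness of level.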

How the data were processed

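RNA from 3 melan-a replicates was sequenced in 3 lanes each after TruSeq Stranded mRNA preparation. The authors deposited FPKM values after TMM (trimmed mean of M values) scaling, with 2 decimals, for 22698 Ensembl genes per replicate. Before that, per the paper's methods and the submitters' processing notes, they used CASAVA 1.8.2, trimmed 10 bases, aligned to mm9 with STAR 2.3.0e, removed rRNA reads and counted on Ensembl 67 with htseq-count (HTSeq 0.5.3p3). edgeR is also named there, and the conversion to FPKM is not given in the sources used here. DESeq2, which the study's methods name, needs counts and was not used.

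The members and gene lists were chosen with earlier results of these data known. The text names all 10 members and the 3 highest genes of each list plus *Tyr*, *Sod1*, *mt-Co2*, *Mtf1*, *Slc30a1* and *Mt4*. It also names the nearest gene of each member above 1 FPKM, *Cdkn2a*, and markers at 0 with *Lyz2* and *Col1a1*. Genes were ranked from the highest, with ties at the smallest rank. Ratios used log2(FPKM + 1), which understates changes of low genes.

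Positions, lengths and GC content came from an mm9 annotation of Ensembl 65, which held 22324 of the 22698 genes. Library sizes were fitted so that genes of 1 transcript and at most 500 bases gave whole reads. This gave 53800000, 46900000 and 66400000 reads for replicates 1, 3 and 4, with mean distances of 0.045, 0.049 and 0.065 reads from 132 to 153 genes. These are the sizes that divide the deposited values, and they may include the TMM scaling. A level of 3 reads was taken as the smallest measurable one and covers counting error only. Tested on data simulated without TMM scaling, the fit recovered library sizes of 45000000, 60000000 and 75000000 reads to within 100000, from 132 to 148 genes. Promoter sequences came from RefSeq (GRCm38.p6). Alternatives were other pseudocounts, filters, scalings and lengths, the median, and each replicate left out. The shortest protein-coding transcript and the GC comparison were added after seeing the data. Python 3.11.15, numpy 2.4.6, pandas 2.3.3, scipy 1.17.1 and matplotlib 3.10.9 were used.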

Additional observations from a re-analysis of the deposited data

How the results depend on the processing

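Of 70 recalculated ratios between genes, 52 moved by less than the SD between replicates, 17 moved by more and 1 was reversed. Taking the median or leaving out 1 of 3 replicates could not move a mean by more than that SD. The length settings could not change *Atox1* to *Ccs* or *Mt2* to *Mt3*, since these genes have the same length under each. The count of 52 therefore overstates how stable the ratios were. With a pseudocount of 0.1 FPKM the log2 ratio of *Atp7a* to *Atp7b* was 5.83, *Mt2* to *Mt3* 9.67, *Mt1* to *Mt3* 11.1 and *Atox1* to *Cox17* 5.11. Without a pseudocount *Atp7a* to *Atp7b* was 8.08, *Atox1* to *Cox17* 5.14 and *Ccs* to *Cox17* 2.66. With each replicate rescaled to 1000000 they were 4.21 for *Atp7a* to *Atp7b*, 8.09 for *Mt2* to *Mt3*, 9.53 for *Mt1* to *Mt3* and 5.02 for *Atox1* to *Cox17*. Per longest transcript *Mt1* to *Mt2* was 1.68 and *Mt1* to *Mt3* 8.47. Per shortest protein-coding transcript *Mt1* to *Mt2* was 1.91, *Mt1* to *Mt3* 8.69, *Slc31a1* to *Slc31a2* 0.27, *Atox1* to *Cox17* 1.96 and *Ccs* to *Cox17* -0.47, the one reversal, which follows from the shorter length. With 1 replicate left out, ratios ranged from 2.92 to 3.06 for *Atp7a* to *Atp7b*, 1.30 to 1.46 for *Slc31a1* to *Slc31a2*, 1.38 to 1.48 for *Mt1* to *Mt2*, 2.38 to 2.54 for *Atox1* to *Ccs* and 2.29 to 2.52 for *Ccs* to *Cox17*. The number of genes at 1 FPKM or more stayed at 8 under all 7 alternatives. Of 69 ranks recalculated without a change of gene length, 67 moved by less than the spread between replicates, and the other 2 were those of *Atp7b*. Per shortest protein-coding transcript *Cox17* moved from rank 7738 to 1774 and *Slc31a2* from 6862 to 3755. These ranks changed the length of 1 gene at a time and left all others as deposited, so they compare unlike lengths. For the ratio of replicate 3 to 4, 7 of 40 values changed sign. Minus the median of genes of like GC content they were 0.014 for *Atp7a*, 0.27 for *Slc31a1*, -0.038 for *Ccs*, -0.23 for *Mt1* and -0.47 for *Mt3*, whose own ratio the added 1 FPKM holds near 0. For *Mt1* the value was -0.064 after rescaling and -0.092 when mitochondrially encoded genes were left out too. The cause was not tested. No paired analysis was possible because there is 1 group. Rounding to 0.01 FPKM and the depth limit *Atp7b* and *Mt3*, and the gene length limits *Cox17*, *Slc31a2*, *Atp7b* and *Mt1*.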
